A study of Mus musculus with 8 samples.

Results

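The genes described here encode the enzymes that make glutathione and those that use it: the glutathione transferases, the glutathione peroxidases, the peroxiredoxins, the γ-glutamyltransferases, and the enzymes of glutathione synthesis and reduction. Members were taken by gene symbol from the deposited count table, as the numbered genes of the Gsta, Gstk, Gstm, Gsto, Gstp, Gstt, Gstz, Mgst, Gpx, Prdx and Ggt families together with Gclc, Gclm, Gss, Gsr, Glrx, Glo1 and Chac2. This gave 52 of the 22183 genes in the table. The RNA was from liver of mice in which both copies of Stat3 are flanked by loxP sites (Stat3flox/flox, called control, 4 libraries) and of mice of the same genotype that also carry Alb-Cre (Stat3flox/flox;Alb-Cre, called knockout, 4 libraries). Stat3 encodes a transcription factor that answers interleukin-6 and related cytokines. The albumin promoter directs Cre recombinase mainly to hepatocytes, so other liver cells may keep the gene, and the labels do not say which do. Every mouse, control and knockout alike, had alcohol by gavage each day for 2 weeks (20% alcohol by volume, 15 µL per g of body weight). Genotype under alcohol is therefore the single comparison, and no library without alcohol enters it. Strain, age and sex are not given in the labels used here, and no label states that each library is a different animal, so the p-values reflect the spread between libraries, which may be technical.

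Glutathione is a tripeptide of glutamate, cysteine and glycine, held in hepatocytes at high concentration. Glutamate-cysteine ligase, a catalytic (Gclc) and a modifier (Gclm) subunit, makes its precursor, and glutathione synthetase (Gss) adds glycine. Transferases attach glutathione to electrophiles such as lipid aldehydes and drug metabolites, peroxidases and the peroxiredoxin Prdx6 spend it on peroxides, and glutathione reductase (Gsr) returns the oxidised form with NADPH. In liver the alpha, mu and pi transferases are abundant cytosolic proteins, several of them are inducible through the antioxidant response factor NRF2, and ethanol oxidation is a known load on the glutathione pool.

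Libraries held 15998391 to 19474696 counts. Stat3 was at 75.1, 72.9, 46.8 and 72.1 CPM (counts per 1000000, on libraries scaled by TMM) in controls 1 to 4 and at 27.3, 25.1, 29.7 and 28.4 CPM in knockouts 1 to 4, without overlap. Y-linked reads (Ddx3y, Eif2s3y, Kdm5d and Uty, summed) were uneven within both genotypes, with 5, 1, 1672 and 294 counts in controls 1 to 4 and 2, 728, 934 and 842 in knockouts 1 to 4. More than 10 counts were taken as presence, so controls 1 and 2 and knockout 1 are called libraries without Y-linked reads. Control 2 stood apart in composition, where albumin took 27.3% of all counts (7.46 to 13.8% in the rest). Control 3 stood apart in macrophage markers, with the lowest summed level of the 8 libraries. The 9 hepatocyte markers listed were all detected.

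Of the 52 members, 43 passed the filter on low counts and were tested, among 11692 tested genes. By edgeR's quasi-likelihood test none of the 43 had an adjusted p under 0.05, which 4 genes in all did (0.0342%). The smallest adjusted p among members was 0.0790, for Gsta2. At an unadjusted p under 0.05, 14 members were on the higher side in knockout (32.6%) and 0 on the lower side, against 5.55% and 8.47% of all tested genes. Groups did not overlap in 11 members, all with knockout above control (25.6%), and in 0 with knockout below, against 3.22% and 3.86% of all tested genes. The log2 fold change (knockout minus control) was above 0 in 38 members (88.4%) against 46.8% of all tested genes, and its median was 0.42 against −0.03. DESeq2 called 5 members at adjusted p under 0.05, Gsta2, Gsta4, Gstm1, Gstm3 and Gstt1, all higher in knockout, where it called 0.909% of all genes higher and 1.4% lower. Of the 43 tested members, 11 (8 of the 38 above 0) had the opposite sign in at least 1 alternative run, 7 of them among libraries with Y-linked reads alone. Members share libraries, regulators and in part reads, so they are not independent observations, and their counts are a description.

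**Figure D1:**
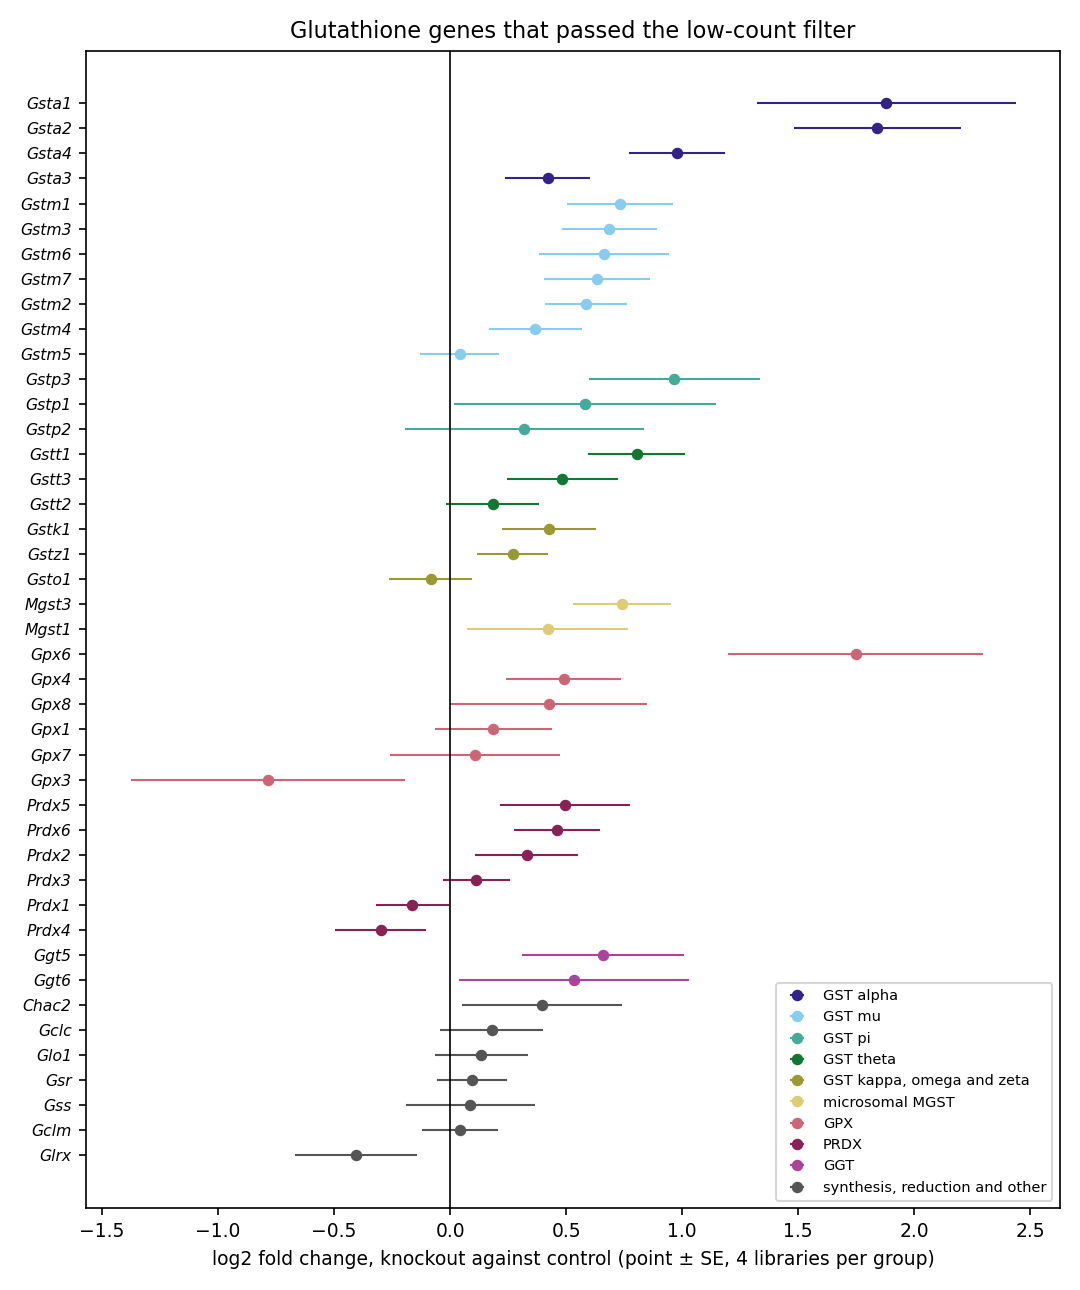
The log2 fold change (horizontal axis, knockout minus control) of the 43 tested members, ordered by class, with bars of 1 standard error from edgeR. The 38 members right of 0 include every tested alpha, mu, pi and theta transferase, and Gpx3 lies farthest left at −0.79, a value that turned to 0.44 without control 2.

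Alpha class transferases, which conjugate the lipid aldehyde 4-hydroxynonenal and reduce lipid peroxides, had the highest median log2 fold change of the classes described (1.41 over 4 tested members). In all 4 every knockout library was above every control library, as in 3.22% of all tested genes. Gsta2 (ENSMUSG00000057933; chromosome 9, 78331018 to 78355788, GRCm38) was at 19.6, 7.45, 34.2 and 21.9 CPM in controls 1 to 4 and at 58.4, 87.2, 69.8 and 83.2 CPM in knockouts 1 to 4. Control 2 was the lowest library and control 3 the highest control, still below knockout 1. The log2 fold change was 1.84 (SE 0.36, adjusted p = 0.0790 by edgeR). Gsta4 (ENSMUSG00000032348; chromosome 9, 78182774 to 78209349), the form with the highest known activity toward 4-hydroxynonenal, was at 32.5, 21.1, 40.3 and 41.0 CPM in control against 57.3, 67.1, 71.3 and 70.4 CPM in knockout. Its knockout libraries lay close together and its log2 fold change was 0.98 (SE 0.21, adjusted p = 0.0966 by edgeR).

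Gsta1 (ENSMUSG00000074183; chromosome 9, 78230656 to 78242684) was at 3.79, 0.355, 5.84 and 5.69 CPM in control against 7.45, 19.9, 12.5 and 18.6 CPM in knockout, a log2 fold change of 1.88 (SE 0.56, adjusted p = 0.223 by edgeR). The groups did not overlap. Control 2 was far below the other controls, and the log2 fold change was 1.52 without it. Gsta3 (ENSMUSG00000025934; chromosome 1, 21240589 to 21265661), the constitutive alpha transferase of mouse liver, which acts on aflatoxin epoxide, was at 1297, 1100.4, 1713 and 1481 CPM in control against 1873, 1907, 1849 and 1853 CPM in knockout. Its knockout libraries differed little while controls spread, and its log2 fold change was 0.42 (SE 0.18, adjusted p = 0.341 by edgeR). Gsta3 supplied most counts of the class, and the summed level of the alpha genes was 1456 ± 283 CPM in control against 2026 ± 38.6 CPM in knockout (mean ± SD, n = 4 each), a smaller relative difference than that of Gsta2.

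The coding starts of the alpha genes are shown because they bear on how reads could be divided among them. They run from the start codon over 90 bases (GENCODE M21 transcripts, GRCm38), and capitals mark bases that differ from Gsta2.
Gsta2: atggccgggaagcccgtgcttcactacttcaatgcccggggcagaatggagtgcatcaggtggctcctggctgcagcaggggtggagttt
Gsta1: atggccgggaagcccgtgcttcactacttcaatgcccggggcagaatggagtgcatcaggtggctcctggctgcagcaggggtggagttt
Gsta3: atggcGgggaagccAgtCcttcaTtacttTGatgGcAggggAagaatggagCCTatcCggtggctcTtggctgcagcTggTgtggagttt
Gsta4: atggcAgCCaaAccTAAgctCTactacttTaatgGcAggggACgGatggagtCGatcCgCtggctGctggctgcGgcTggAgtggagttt
In this stretch Gsta1 does not differ from Gsta2, whereas Gsta3 differs at 16 bases and Gsta4 at 23. Over the whole coding sequence Gsta1 and Gsta2 are 97.6% identical, against an identity of 75.3% for Gsta2 with Gsta3 and 66.8% with Gsta4. Over whole transcripts, Gsta1 and Gsta2 share 46.6% of the 50-base words of whichever gene has fewer. Gsta5, 98.5% identical to Gsta2, had too few counts to be tested. Fractional counts, such as count estimation gives for reads shared between genes, were present in Gsta1, Gsta2 and Gsta5, so the division among these 3 is uncertain. The sum of Gsta1 and Gsta2 had a log2 fold change of 1.85 (SE 0.39, adjusted p = 0.0951 by edgeR), close to that of each gene.

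The bases before the transcription start of 3 alpha genes are given because Gsta1 and Gsta2 had similar fold changes while Gsta3 had a smaller one. These are the 250 bases upstream of the RefSeq start (GRCm38.p6, 5′ to 3′ on the gene's strand), with motif matches in capitals.
Gsta1, chr9:78230419-78230668, plus strand: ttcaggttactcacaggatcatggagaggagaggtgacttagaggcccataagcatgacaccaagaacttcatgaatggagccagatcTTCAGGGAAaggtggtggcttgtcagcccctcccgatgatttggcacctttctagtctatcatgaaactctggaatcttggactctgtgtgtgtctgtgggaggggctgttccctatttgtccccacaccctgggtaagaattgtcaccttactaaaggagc
Gsta2, chr9:78347146-78347395, minus strand: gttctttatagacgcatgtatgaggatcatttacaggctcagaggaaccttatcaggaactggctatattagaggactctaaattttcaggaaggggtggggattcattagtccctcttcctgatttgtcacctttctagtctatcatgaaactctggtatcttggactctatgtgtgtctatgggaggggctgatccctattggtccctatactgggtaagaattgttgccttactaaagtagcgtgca
Gsta3, chr1:21240335-21240584, plus strand: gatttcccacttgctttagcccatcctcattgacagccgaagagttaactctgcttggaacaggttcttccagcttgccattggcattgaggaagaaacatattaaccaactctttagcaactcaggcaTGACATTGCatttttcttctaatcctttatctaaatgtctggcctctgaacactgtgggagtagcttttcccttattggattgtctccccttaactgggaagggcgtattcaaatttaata
Promoters of 250 bases before to 50 after the start were searched on both strands for the antioxidant response core TGACNNNGC and for the STAT spacing TTCNNNGAA, which do not overlap each other in these windows. The Gsta1 window holds TTCAGGGAA, 162 bases before the start, the Gsta3 window holds TGACATTGC, 121 bases before it, and the Gsta2 window holds neither. Aligned over these 250 bases, Gsta1 and Gsta2 are 70.5% identical, and Gsta3 is 50.7% identical to Gsta1 and 49.5% to Gsta2. Of the 44 members with a promoter in the table, 7 (15.9%) held the antioxidant core in any of their entries and 5 (11.4%) the STAT spacing, against 14.0% and 9.6% of all 27025 genes there. Such matches are letters in a window and do not show binding.

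**Figure D2:**
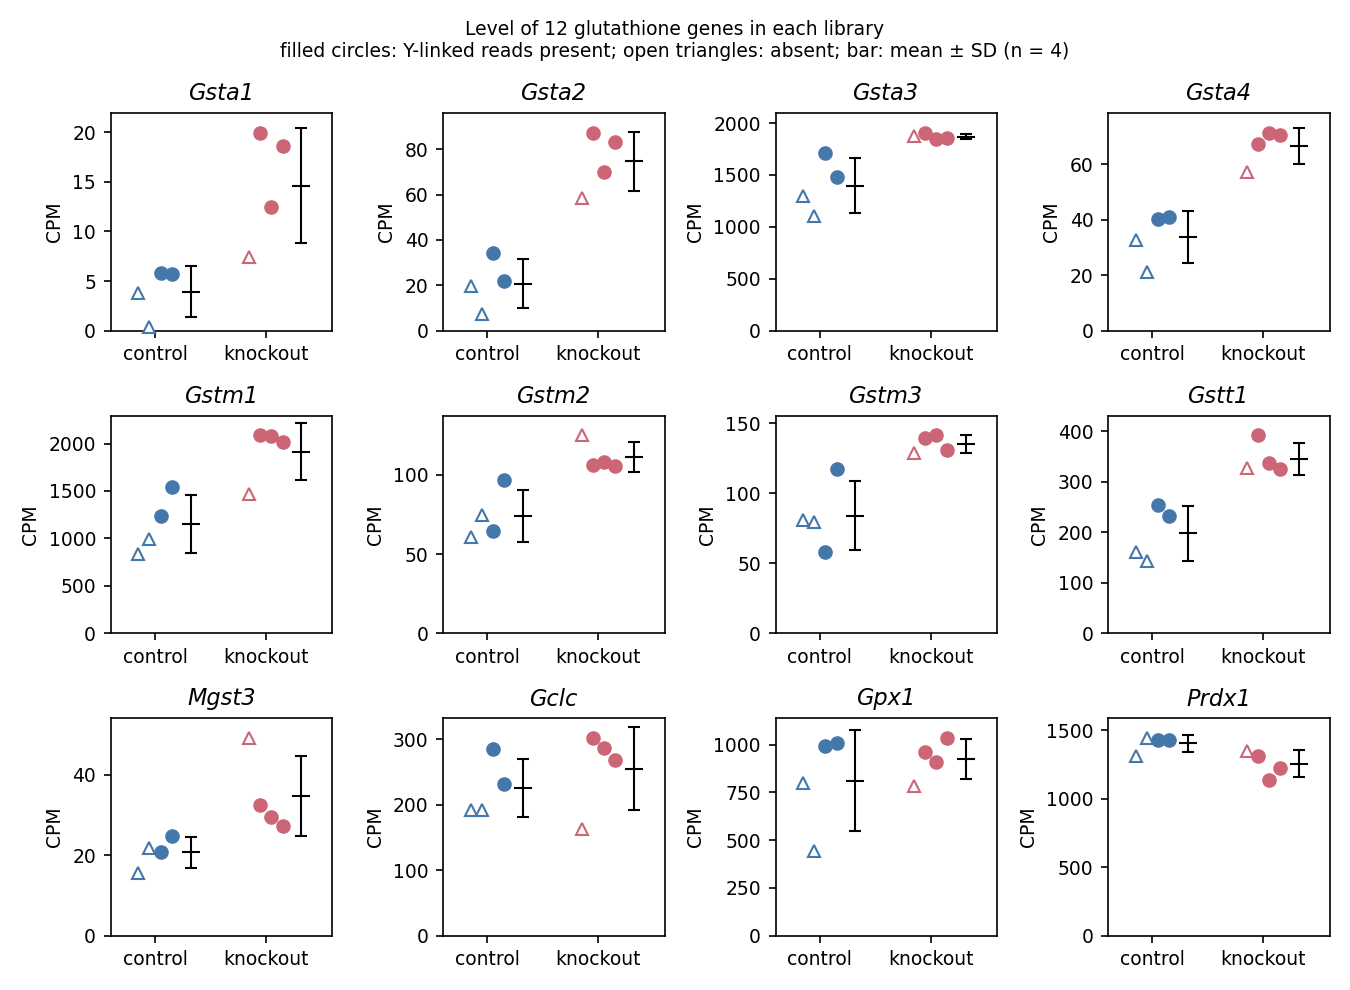
Levels in CPM (vertical axes from 0) of selected members in each library, with control and knockout side by side, each marker a library (filled with Y-linked reads, open triangles without) and the bars mean ± SD. In Gsta2 the lowest knockout library, 58.4 CPM, is above the highest control, 34.2 CPM, while the groups overlap in Gclc.

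Mu class transferases, which conjugate epoxides and quinones, lie in a single cluster on chromosome 3 (107895821 to 108044894, GRCm38). All 7 were tested, and 7 had a log2 fold change above 0, as did 46.8% of all tested genes. Of the 7, 5 were higher in knockout at an unadjusted p under 0.05 (5.55% of all tested genes). In 3 the groups did not overlap, with knockout above (3.22% of all tested genes). The class median was 0.63. Gstm1, the most abundant of them, was at 832, 992, 1239.9 and 1544 CPM in control against 1464, 2087, 2080.2 and 2018 CPM in knockout. Knockout 1 was below the other knockouts and below control 4, and the log2 fold change was 0.73 (SE 0.23, adjusted p = 0.230 by edgeR). Gstm3 was at 80.6, 79.8, 57.9 and 117 CPM in control against 129, 139, 141 and 131 CPM in knockout (0.69, SE 0.20, adjusted p = 0.223 by edgeR), with groups apart. Gstm2 was at 60.8, 74.6, 64.3 and 97.0 CPM in control against 125, 106, 108 and 105 CPM in knockout (0.58, SE 0.18), again with groups apart and with knockout 1 the highest library.

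Gstm7 was at 33.0, 18.4, 33.5 and 44.7 CPM in control against 55.9, 45.7, 51.9 and 47.7 CPM in knockout, and its groups were apart, though control 4 and knockout 2 lay close together (0.63, SE 0.23). Gstm6 was at 65.8, 39.4, 106 and 105 CPM in control against 106, 141, 124 and 130.4 CPM in knockout, where knockout 1 lay within the range of the controls (0.66, SE 0.28). The other 2, Gstm4 and Gstm5, had log2 fold changes of 0.37 and 0.04, the latter the smallest of the class. The summed mu level was 1490.1 ± 382 CPM in control against 2420 ± 299 CPM in knockout, and its log2 fold change of 0.70 had an adjusted p of 0.228 by edgeR. Gstm1, Gstm3 and Gstm6 carried fractional counts, so their separate values are less certain than the sum.

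Theta class transferases act on small halogenated compounds. Gstt1 (ENSMUSG00000001663; chromosome 10, 75783813 to 75798584) was at 161, 143, 255 and 233 CPM in control against 327, 392, 338 and 326 CPM in knockout. The groups did not overlap, controls 1 and 2 being the lowest libraries, and the log2 fold change was 0.80 (SE 0.21, adjusted p = 0.175 by edgeR). Gstt3 had a value of 0.48 (SE 0.24) and Gstt2 of 0.18 (SE 0.20), both with overlapping groups. Exons of Gstt3 overlap those of the predicted gene Gm20441 on the same strand, so its counts are uncertain.

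Pi class transferases, encoded on chromosome 19, are known in mice for higher levels in male than in female liver, and Gstp1 spread more between libraries of 1 genotype than between genotypes. It was at 242, 688, 1632 and 816 CPM in control against 327, 1749, 1416 and 1561 CPM in knockout, with a log2 fold change of 0.58 (SE 0.56). The 4 lowest libraries were controls 1, 2 and 4 and knockout 1, of which control 4 alone had Y-linked reads. With the presence of Y-linked reads in the model, its log2 fold change was 0.06, and it was 0.36 among libraries with Y-linked reads alone. With 1 library left out it ranged from 0.28 (without control 1) to 1.12 (without control 3), with 0.39 without knockout 2 and 0.90 without knockout 1. Gstp2 was at 1.16 to 6.45 CPM (0.32, SE 0.52). Gstp3 was at 8.0, 6.52, 12.7 and 16.9 CPM in control against 37.5, 12.9, 20.0 and 15.9 CPM in knockout (0.97, SE 0.37), where knockout 1 was the highest library and the remaining knockouts overlapped the controls. Its value was 0.56 without knockout 1 and 0.13 among libraries with Y-linked reads alone.

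The coding starts of the pi genes show how close Gstp1 and Gstp2 are, with capitals for bases that differ from Gstp1 (GENCODE M21, GRCm38, from the start codon).
Gstp1: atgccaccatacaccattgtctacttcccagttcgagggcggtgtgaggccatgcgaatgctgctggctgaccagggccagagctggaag
Gstp2: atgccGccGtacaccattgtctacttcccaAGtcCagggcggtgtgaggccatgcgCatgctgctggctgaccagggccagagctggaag
Gstp3: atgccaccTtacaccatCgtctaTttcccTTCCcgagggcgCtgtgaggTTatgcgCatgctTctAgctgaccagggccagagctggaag
Gstp2 differs at 6 of these 90 bases and Gstp3 at 13. Gstp1 and Gstp2 are 98.1% identical over the coding sequence and both had fractional counts. Their sum had a log2 fold change of 0.58, the same as Gstp1 alone.

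Microsomal glutathione transferases sit in the endoplasmic reticulum membrane. Mgst1, which also reduces lipid peroxides, was at 2367, 2129, 5803 and 3373 CPM in control against 2864, 6546, 4159 and 4743 CPM in knockout, with overlapping groups (0.42, SE 0.35). Controls 1 and 2 and knockout 1, the libraries without Y-linked reads, were its 3 lowest, and its value was 0.23 with the presence of Y-linked reads in the model and 0.17 among libraries with them alone. It was 0.81 without control 3, 0.25 without control 2 and 0.20 without knockout 2. Mgst3 was at 15.7, 21.8, 20.8 and 24.8 CPM in control against 49.2, 32.4, 29.5 and 27.4 CPM in knockout (0.74, SE 0.21, adjusted p = 0.208 by edgeR). Its groups did not overlap, and knockout 1 was the highest library. Among the kappa, omega and zeta transferases, Gstz1, which isomerises maleylacetoacetate in tyrosine breakdown, was at 537, 462, 564 and 547 CPM in control against 653, 660.5, 578 and 650.5 CPM in knockout. Its groups did not overlap, but the log2 fold change of 0.27 (SE 0.15) had an unadjusted p of 0.107 by edgeR. Exons of Gstz1 overlap those of Pomt2 on the opposite strand, and the use of strand in counting is not given in the sources used here. Gstk1 of mitochondria and peroxisomes had a value of 0.43 (SE 0.20) and Gsto1 of −0.08 (SE 0.18).

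**Figure D3:**
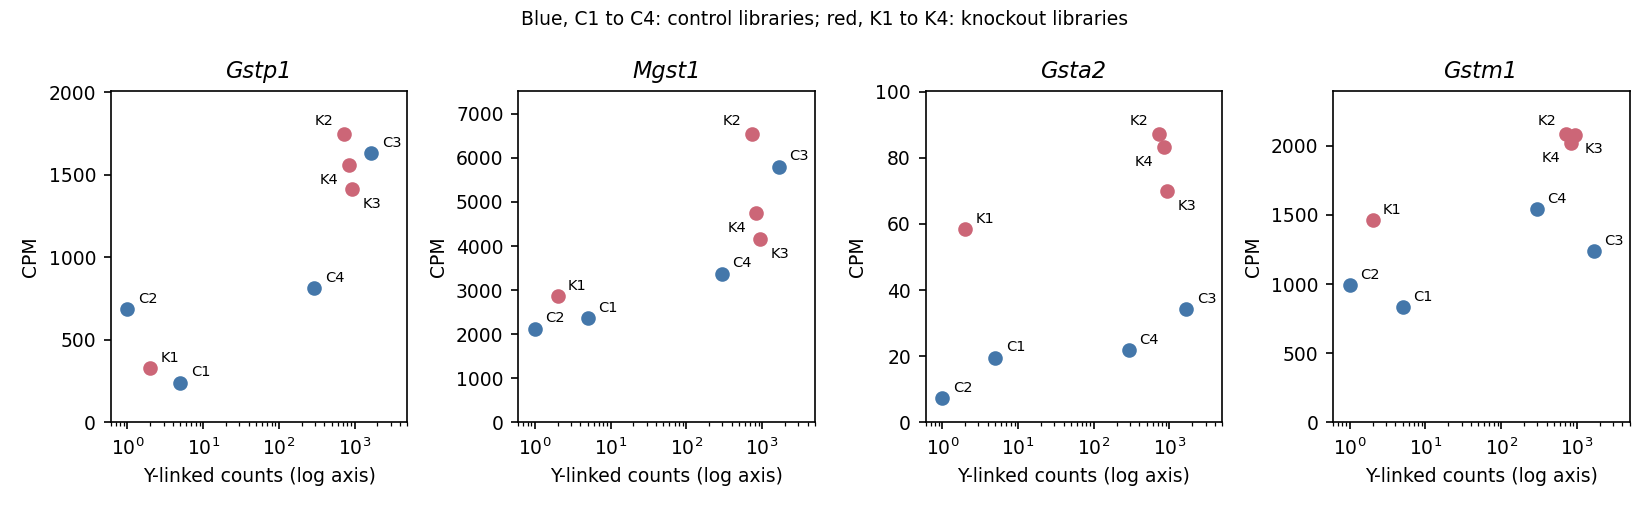
CPM of 4 members (vertical axes from 0) against the counts of the 4 Y-linked genes in the same library (horizontal log axis), each point a library. The 3 libraries without Y-linked reads are the lowest of their genotype both in Mgst1 and in Gsta2. In Gsta2 knockout 1, 1 of these 3, is above every control.

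Glutathione peroxidases reduce hydrogen peroxide and lipid hydroperoxides, and several of them are selenoproteins. Gpx1, the main cytosolic form of liver, was at 799, 444, 994 and 1009 CPM in control against 785, 964, 909.5 and 1036 CPM in knockout (0.19, SE 0.25). Control 2 was far below every other library, and the remaining 7 overlapped. The value of Gpx1 was −0.016 without control 2 and −0.047 among libraries with Y-linked reads alone. Gpx4, which reduces phospholipid hydroperoxides in membranes, was at 194 ± 73.6 CPM in control against 273 ± 28.0 CPM in knockout (mean ± SD, n = 4 each), with a log2 fold change of 0.49 (SE 0.25). Gpx6 was the 1 member of the class with an unadjusted p under 0.05 (1.75, SE 0.55), but it was near the floor of detection, at 0.516, 0.284, 0.298 and 0.20 CPM in control against 0.423, 2.09, 1.2 and 0.833 CPM in knockout, and passed the filter on low counts through control 1 and knockouts 2 to 4. Gpx3, the secreted plasma form, had the lowest log2 fold change of all tested members when all libraries were used (−0.79, SE 0.59), with 42.8 CPM in control 2 and 4.73 to 9.19 CPM in the other controls. Its knockouts were at 8.14, 8.92, 8.84 and 10.3 CPM. The direction turned without control 2 (0.44) and among libraries with Y-linked reads alone (0.28, SE 0.21), and the value was −0.34 with the presence of Y-linked reads in the model. Gpx7 and Gpx8 of the endoplasmic reticulum were at 0.834 to 2.75 CPM, with values of 0.11 (SE 0.37) and 0.42 (SE 0.42), or of −0.16 and −0.07 without knockout 1.

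Peroxiredoxins reduce peroxides through a reactive cysteine, most of them with thioredoxin and Prdx6 with glutathione. Prdx6 was at 215, 218, 336 and 307 CPM in control against 343, 392, 371 and 375 CPM in knockout, without overlap (0.46, SE 0.19, adjusted p = 0.317 by edgeR). Prdx1, the most abundant of the class, was at 1314, 1444, 1430.4 and 1431 CPM in control against 1351, 1312, 1133 and 1225 CPM in knockout (−0.16, SE 0.16), where knockout 1 was above control 1 and the other knockouts were below every control. Prdx4 of the endoplasmic reticulum, at 143 ± 32.4 CPM in control against 116 ± 18.7 CPM in knockout, had a log2 fold change of −0.30 (SE 0.20). Prdx2, Prdx3 and Prdx5 had values of 0.33, 0.11 and 0.50, with overlapping groups. Prdx2 and Prdx5 overlap exons of other genes on the opposite strand.

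Of the 7 genes of glutathione synthesis, reduction and related steps, 0 had an unadjusted p under 0.05 by edgeR and 0 had groups apart. Of all tested genes, 5.55% were higher and 8.47% lower at that threshold, with groups apart in 3.22% and 3.86%. The median log2 fold change of these 7 genes was 0.09. Gclc, the catalytic subunit of the rate-limiting ligase, was at 192, 192, 285 and 232 CPM in control against 163, 302, 287 and 268 CPM in knockout (0.18, SE 0.22). Knockout 1 was its lowest library, and the value was 0.01 with the presence of Y-linked reads in the model and 0.09 to 0.34 with 1 library left out. Gclm, the modifier subunit, was at 145, 189, 226 and 177 CPM in control against 191, 197, 189 and 182 CPM in knockout (0.04, SE 0.17). Gss was at 35.7, 91.9, 51.8 and 51.0 CPM in control against 42.3, 67.1, 61.1 and 74.2 CPM in knockout (0.09, SE 0.28), and its exons overlap those of Acss2 on the opposite strand. Gsr was at 53.2, 57.8, 57.5 and 65.4 CPM in control against 49.7, 67.9, 65.2 and 66.9 CPM in knockout (0.09, SE 0.15), knockout 1 again the lowest. Without control 1 the value of Gclm was −0.048 and that of Gss −0.076, while that of Gss was 0.41 without control 2. Among libraries with Y-linked reads alone Gclm was at −0.090, and Gss at 0.39 with groups apart and an unadjusted p of 0.0139 (adjusted p = 0.202 by edgeR). These standard errors of 0.15 to 0.28 on the log2 scale bound what the libraries could show, and a p above the threshold does not show equal levels.

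Of the other 3 of these 7, Glrx, glutaredoxin 1, which removes glutathione from protein thiols, had a log2 fold change of −0.41 (SE 0.26), with 108 CPM in control 2 and 45.1 to 54.1 CPM in the other controls, and a value of −0.03 without control 2. Glo1, the glyoxalase that detoxifies methylglyoxal with glutathione, had a value of 0.13 (SE 0.20). Chac2, which breaks glutathione down slowly, had a value of 0.40 (SE 0.34), which was 0.80 without control 3, 0.05 without knockout 1 and −0.32 among libraries with Y-linked reads alone. γ-Glutamyltransferases, which split extracellular glutathione, were at low levels: Ggt6 was at 9.98, 0.993, 11.2 and 12 CPM in control against 11.2, 11.8, 13.4 and 13.4 CPM in knockout (0.53, SE 0.49, or 0.17 without control 2), and Ggt5 was at 0.780 to 2.16 CPM (0.66, SE 0.35).

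Levels of different genes are compared per kb of annotated exon, as group means of CPM per kb, and the order of the 6 highest differed between the groups. In control Mgst1 led at 1698 CPM per kb, followed by Gstm1 at 782, Gpx1 at 563, Gstp1 at 545, Prdx1 at 462 and Gsta3 at 322 CPM per kb. In knockout Mgst1 led at 2274 CPM per kb, followed by Gstm1 at 1298, Gstp1 at 816, Gpx1 at 641, Gsta3 at 431 and Prdx1 at 412 CPM per kb. In control, neighbours from Gstm1 to Prdx1 overlapped in their ranges over libraries, while Mgst1 and Gstm1, and Prdx1 and Gsta3, did not. In knockout, Gstm1, Gstp1 and Gpx1 overlapped as neighbours and so did Gsta3 and Prdx1, while Mgst1 and Gstm1, and Gpx1 and Gsta3, did not. Over all 8 libraries Gstt1 stood at 178, Gstz1 at 114, Gclc at 63.8, Gsta2 at 40.5 and Gsta4 at 39.6 CPM per kb, so the alpha genes with the larger fold changes were below Gsta3 in level. Of the 9 members not tested, Gpx5 and Gstt4 had 0 counts in every library, which allows up to 0.129 to 0.213 CPM per library (3 counts). The other 7, Ggt1, Ggt7, Gpx2, Gsta5, Gsto2, Mgst2 and Prdx6b, had 1 to 7 counts over all libraries. Intervals and floors of this kind cover counting error only.

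The median over tested members of log2 CPM (prior count of 2) relative to each gene's mean was −0.44, −0.39, −0.02 and −0.02 in controls 1 to 4 and 0.15, 0.25, 0.20 and 0.21 in knockouts 1 to 4. Controls 1 and 2, without Y-linked reads, were the lowest, and knockout 1, also without them, was the lowest knockout. Mitochondrially encoded transcripts took 15.9, 12.9, 20.7 and 15.2% of counts in controls 1 to 4 against 20.1, 22.2, 21.5 and 19.7% in knockouts 1 to 4, so control 3 was among the knockouts in this share, and the part of the share in the members' values was not tested. Among the 4 controls, control 1 was lowest in 21 of 43 members and control 2 in 18, and control 3 was highest in 19 of them. Knockout 1 was the lowest knockout in 23 members and the highest in 13.

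**Figure D4:**
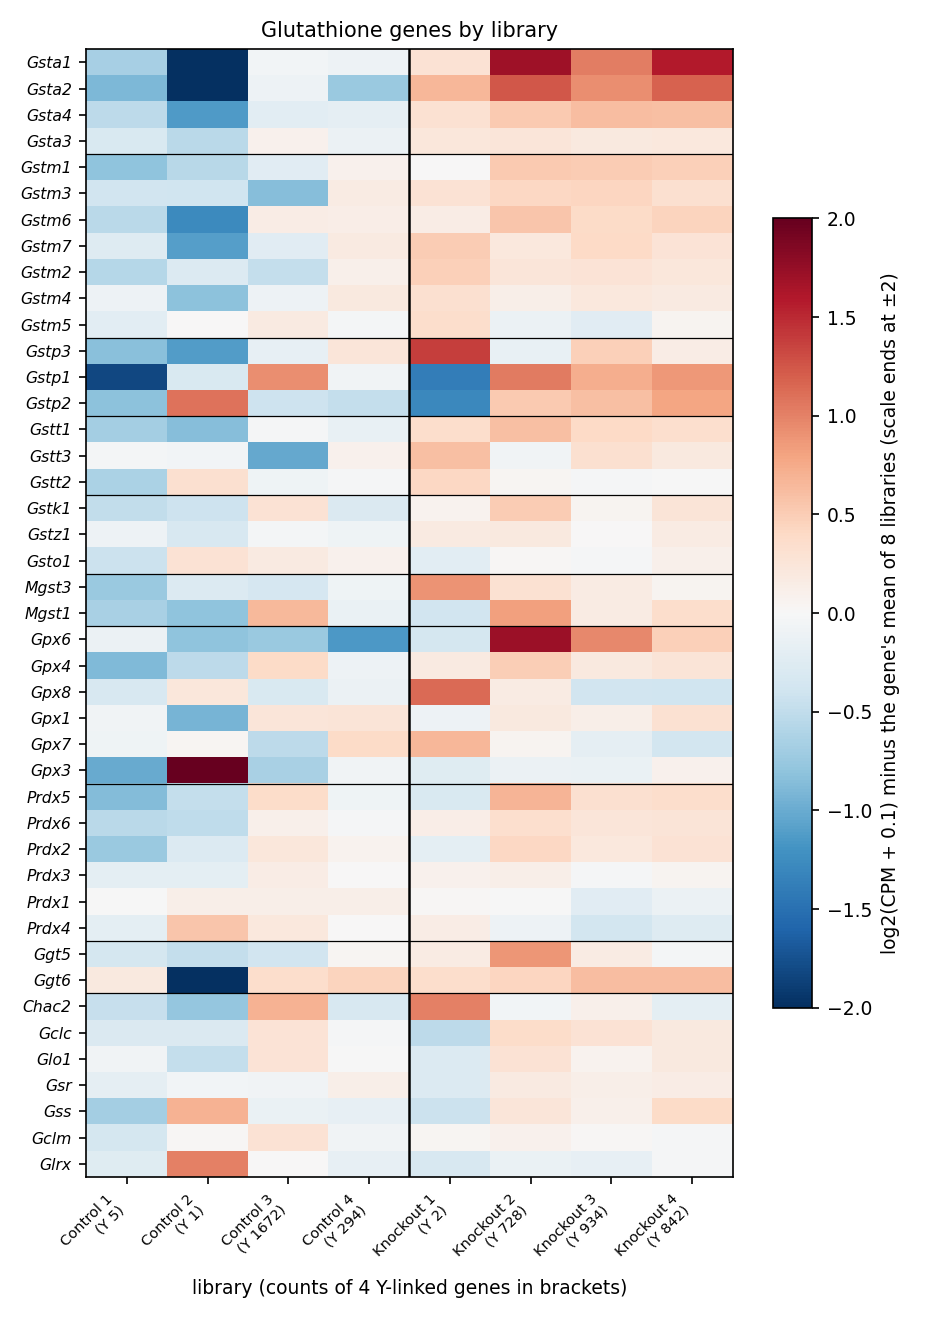
The level, log2(CPM + 0.1), of each tested member (rows, by class) in each library (columns), relative to that gene's mean over the 8 libraries. The 4 alpha rows are lower in every control than in every knockout, and control 2 stands out in Gpx3 and Glrx.

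With the presence of Y-linked reads in the model, 0 members passed an adjusted p under 0.05 in edgeR, where 0.231% of all genes did, and Gsta2 (adjusted p = 0.0506) and Gsta4 (adjusted p = 0.0557) were the nearest. Among the 5 libraries with Y-linked reads alone, Gsta1 (adjusted p = 0.0291), Gsta2 (adjusted p = 0.0213) and Gsta4 (adjusted p = 0.0264) were higher by edgeR, a call made for 0.621% of all genes. In those libraries 12 members were higher at an unadjusted p under 0.05 and 1 lower (7.21% and 8.27% of all genes). Groups did not overlap in 16 with knockout above and in 2 with knockout below, where 16.8% and 16.7% of all genes did so in 2 against 3 libraries. The median log2 fold change of tested members in those libraries was 0.18. Without control 3, the library with the fewest macrophage transcripts, Gsta2 (adjusted p = 0.0094), Gsta4 (adjusted p = 0.0325) and Gstt1 (adjusted p = 0.0399) were higher by edgeR, a call made for 0.487% of all genes. Control 3 also had the most Y-linked counts (1672) and was the highest control in 19 of 43 members, Gsta2 and Gstt1 among them. Leaving it out therefore lowers the control level of those members.

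Markers of cell types and of liver zones were read beside these values. In bulk liver, fewer cells of a type and less RNA per cell cannot be told apart. Of all tested genes, 5.55% were higher and 8.47% lower in knockout at an unadjusted p under 0.05 by edgeR. Of 8 markers (Glul, Cyp2e1, Cyp1a2, Oat, Slc1a2, Lgr5, Axin2 and Rgn) of pericentral hepatocytes, the zone around the central vein where several transferases are known to be high, 3 had an unadjusted p under 0.05 and were higher in knockout, and the summed level was 5621 to 7909 CPM in control against 8013 to 9058 CPM in knockout. Of 11 markers of Kupffer cells, the liver's macrophages, 10 had an unadjusted p under 0.05 and were lower in knockout. Their summed level was 546, 615, 45.7 and 347 CPM in controls 1 to 4 and 125, 80.1, 97.2 and 109 CPM in knockouts 1 to 4. Control 3 lay below every knockout both in these markers and in each of the 4 alpha transferases. Among the controls it was the lowest in the summed markers. It was also the highest control in Gsta1, Gsta2 and Gsta3, and just below control 4 in Gsta4. Of 6 tested B and plasma cell markers 4 were higher in knockout at an unadjusted p under 0.05 (12.5 to 26.1 CPM summed in control, 81.9 to 637 CPM in knockout), and of 10 stellate cell markers 5 were (251 to 369 CPM in control, 330.1 to 489.9 CPM in knockout). Female-biased liver genes, 10 in number, summed to 1313, 11389.9, 49.5 and 1228 CPM in controls 1 to 4 and to 7637, 12.6, 1368 and 941 CPM in knockouts 1 to 4, so that control 4 and knockouts 3 and 4 held both these transcripts and Y-linked reads. No marker of these 5 lists was at 0 in every library. The part of these differences in the members' values was not tested.

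Genes of the pathways around glutathione outside the members were read from lists of 112 genes, of which 103 were tested. None passed an adjusted p under 0.05 by edgeR, 16 were higher and 5 lower at an unadjusted p under 0.05, and groups were apart in 6 and 2. Their median log2 fold change was 0.11. Of all tested genes, 5.55% were higher and 8.47% lower at that unadjusted threshold, and groups were apart in 3.22% and 3.86%. The same shares stand beside the counts of each list below. For cysteine supply 3 of 13 tested genes were higher and 0 lower at an unadjusted p under 0.05. Gnmt, which consumes S-adenosylmethionine and so adjusts the methionine feeding into cysteine, was at 771, 391, 749.9 and 863 CPM in control against 1301, 1177, 1330.1 and 1232 CPM in knockout (0.86, SE 0.24, adjusted p = 0.193 by edgeR), and Slc1a4, a neutral amino acid carrier, had a log2 fold change of 1.04. For NADPH supply 3 of 11 were higher and 1 lower, among them malic enzyme 1 (Me1, 1.12, SE 0.34) and, on the lower side, the hexose-6-phosphate dehydrogenase of the endoplasmic reticulum (H6pd, −0.63, SE 0.22).

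Of 18 regulators and other targets of NRF2, 5 were higher and 1 lower at an unadjusted p under 0.05, with a median of 0.27. Maff, a small MAF protein that pairs with NRF2, had a value of 0.71 (SE 0.21), and Ugdh, which makes UDP-glucuronate, a value of 0.67 (SE 0.22). Among 13 receptors and hepatocyte regulators 2 were higher and 2 lower, with a median of −0.25, the 2 of smallest p being Arnt, the partner of the aryl hydrocarbon receptor (−0.54, SE 0.16), and the hepatocyte factor Cebpa (0.45, SE 0.14). For export and import of glutathione 2 of 13 were higher and 0 lower, Slc25a10, a mitochondrial dicarboxylate carrier, standing at 0.89 (SE 0.30) and the efflux pump Abcc4 at 0.72 (SE 0.26). Glutathione breakdown had 0 higher and 1 lower of 7, with Chac1, a stress-induced enzyme that cleaves glutathione, at −0.72 (SE 0.25). Of 9 glutaredoxin and related genes 1 was higher and 0 lower, with the mitochondrial iron-sulfur protein Glrx5 at 0.63 (SE 0.23). The thioredoxin system (11 tested) and selenoprotein synthesis (8 tested) had 0 genes at an unadjusted p under 0.05 by edgeR, with medians of 0.03 and 0.04.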

How the data were processed

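Per the labels' protocols, Trizol RNA of frozen liver was sequenced on a HiSeq X10. The submitters' processing notes name CASAVA 1.8, Bowtie, TopHat2 and the build GRCm38, while the counting program, the annotation and whether strand was used were not given in the sources used here. Values in the 1 deposited table are the authors' estimated counts by gene without normalization, 94.2% of them whole. GENCODE M21 contained 99.8% of its identifiers and supplied coordinates and exon lengths, and promoters came from RefSeq (GRCm38.p6).

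Counts were rounded, filtered by filterByExpr, scaled by TMM and compared by edgeR's quasi-likelihood test (edgeR 4.0.16, R 4.3.3), with Benjamini-Hochberg adjustment over 11692 genes, no covariate and a threshold of 0.05. Alternatives included DESeq2 1.42.0, limma-voom (limma 3.58.1), other scalings and filters, a replicate block, single libraries left out, and presence of Y-linked reads (more than 10 counts over 4 genes). The test was checked on simulated counts with known changes and the same dispersion for every gene. That check held no Y-linked or albumin differences within a group, so it does not cover them. Libraries held 15998391 to 19474696 counts, and on their sizes scaled by TMM 3 counts were 0.129 to 0.213 CPM. Duplicates within a group were looked for by a chi-square of counts: the closest pair, knockouts 3 and 4, differed beyond sampling noise (median 1.26, mean 10.7 per gene).

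Members, gene lists, tests and alternatives were chosen with earlier results of these data known. Values in every library are given for 24 members: tested members with an unadjusted p under 0.05 or groups apart, Gclc, Gclm, Gss, Gsr and the top of each class per kb. At most 2 genes of smallest p are named per pathway list. Gstm4, Gstm5, Gstp2, Gstt2, Gstt3, Gpx3, Gpx4, Gpx7, Gpx8, Prdx2 to Prdx5, Gstk1, Gsto1, Glrx, Glo1, Chac2 and Ggt5 are given as single values to account for their classes.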

Additional observations from a re-analysis of the deposited data

Results flagged for a closer look

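In 11 of 106 groups of 4 libraries checked, 1 library stood apart from the other 3 by Dixon's criterion, which chance does in about 1 of 20. Knockout 1, without Y-linked reads, stood apart from the other knockouts in 5. It was low in Gstm1 (1464 CPM, against 2018 to 2087 CPM), in the summed mu class that Gstm1 dominates (1974 CPM, against 2517 to 2599 CPM) and in the reductase Gsr (49.7 CPM, against 65.2 to 67.9 CPM). It was high in Gstm2 (125 CPM, against 105 to 108 CPM) and in Gstt2 (44 CPM, against 32.6 to 34.1 CPM).

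Control 2, with the highest albumin share, stood above the other controls in 3 members: Gpx3 (42.8 CPM, against 4.73 to 9.19 CPM), Glrx (108 CPM, against 45.1 to 54.1 CPM) and Gstp2 (6.45 CPM, against 1.64 to 2.20 CPM). Control 1 was low in Prdx1 (1314 CPM, against 1430.4 to 1444 CPM). Knockout 3 was low in Gstz1 (578 CPM, against 650.5 to 660.5 CPM), and knockout 2 was high in Ggt5 (2.16 CPM, against 1.09 to 1.27 CPM), a gene of low level. What sets these libraries apart was not tested.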

How the results depend on the processing

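The median log2 fold change of tested members stayed above 0 under every alternative run, from 0.18 to 0.52. Members called at the adjusted threshold, 0 by edgeR with all libraries, numbered 5 by DESeq2 (2.3% of all genes), 1 with no filter on low counts (Gsta2, 0.382% of all genes), 2 at an adjusted p under 0.10 (Gsta2 and Gsta4, 0.676%), 1 without controls 2 and 3 together (Gsta2, 2.33% of members against 1.54% of all genes), and 0 to 3 when 1 library was left out, the 3 being those without control 3 (2.72% of all genes). Members with groups apart and knockout higher numbered 6 on total counts without composition scaling (2.28% of all genes). They numbered 7 when paralogs were summed (3.2%), which leaves 34 to test, 9 of them higher at an unadjusted p under 0.05 (5.52%). The sums were Gsta1 with Gsta2, Gstp1 with Gstp2, Gstt1 with Gstt3, and all 7 mu genes. The theta pair is 75.4% identical over the coding sequence and mu pairs 62.7 to 84.9%, so these sums also merge distinct genes. Among libraries with Y-linked reads alone, 3 members were called (1.05% of all genes), the median was 0.18, 12 members were higher at an unadjusted p under 0.05 (7.21%) and 1 lower (Prdx4, 8.27%), and groups were apart in 16 with knockout above (16.8%) and in 2 with knockout below (Prdx1 and Prdx4, 16.7%). That last number was 0 to 1 with 1 library left out, the 1 being Prdx1 without control 1 or knockout 1. The sign turned in at least 1 alternative in 11 of 43 members, none of them called. Among libraries with Y-linked reads alone Gpx1 was −0.047, Gclm −0.090, Gpx3 0.28, Chac2 −0.32, Gpx7 −0.19, Gstm5 −0.17 and Prdx3 −0.02. With 1 library left out, Gclm ranged from −0.048 (without control 1) to 0.16, Gss from −0.076 (without control 1; −0.017 without knockout 4) to 0.41 and Gpx1 from −0.016 (without control 2) to 0.31, and Gpx3, Gpx7, Gpx8, Gsto1 and Gstm5 also turned. Glrx turned without controls 2 and 3 together (0.05). The cause was not tested. The replicate numbers did not pair the libraries throughout (correlations of 0.33, −0.24, 0.10 and 0.18 for numbers 1 to 4). The best-matching knockout had the same number for controls 1 and 4 but another number for controls 2 and 3. With the replicate block 0 members were called, 15 were higher at an unadjusted p under 0.05 and the median was 0.44. Depth limits Gpx6, Ggt5 and the 9 untested members.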

Other observations

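Some members were highest of all 8 libraries in knockout 1, whose median over the members was the lowest of the knockouts. Chac2, which breaks glutathione down, was at 54.4 CPM there and at 15.9 to 44 CPM in the other libraries. Gstp3 was at 37.5 CPM there and at 6.52 to 20.0 CPM elsewhere. Mgst3 was at 49.2 CPM there and at 15.7 to 32.4 CPM elsewhere. Gpx8, a peroxidase of the endoplasmic reticulum, was at 2.75 CPM there and at 0.885 to 1.42 CPM elsewhere. Ggt6 was nearly absent from control 2, at 0.993 CPM against 9.98 to 13.4 CPM in the other libraries. These genes were picked after their values were seen, and no test was made.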
